A study of Mus musculus with 8 samples.

Results

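The genes described here are the replication-dependent core histone genes that lie in clusters on mouse chromosomes 3, 11 and 13. They were taken from the GENCODE mouse annotation of build GRCm39 (mm39) as the protein-coding genes on these chromosomes whose symbols are H2ac, H2bc, H3c or H4c followed by a number. This gave 61 of 21757 protein-coding genes, with 18 H2A, 19 H2B, 12 H3 and 12 H4 genes. Their canonical start sites fall in 35 bins of 5 kb, out of 20359 bins with a protein-coding start site, and every bin was counted once. The members were chosen by name and position, not by a measured value.

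H3K27ac HiChIP was used to record contacts of active chromatin in HPC-7 cells, a mouse hematopoietic progenitor line with very low endogenous CEBPA. All cells were transduced with a retroviral vector that constitutively drives 1 isoform of CEBPA joined to ERT2, a receptor fragment that holds the protein outside the nucleus until 4-hydroxytamoxifen is added; some leak before its addition was described. The study's methods add it a day before experiments with such cells, and the labels do not mention it for HiChIP. The isoform was p42, the full-length protein, or p30, the shorter product seen in leukemia. Each line was untreated (UT) or exposed to 100 ng/mL of LPS, a bacterial cell wall component, for 2 h, which gives the groups p30 UT, p42 UT, p30 LPS and p42 LPS with 2 replicates each. Each group has 1 deposited list of loops, and how its replicates were combined was not stated, so no spread between replicates was measured, no test between conditions was possible, and each difference below is a difference between those libraries.

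Pairs of 5 kb bins on 1 chromosome are listed as a loop where their contacts exceed those the caller's model gives, with a q-value below 0.01. The contacts modelled by the caller, which stand for depth here, were 14503330 to 18999991 per list. Coverage is the number of reads in a bin, and the ratio of mean coverage between bins with an H3K27ac peak and other bins was 3.95 in p30 UT, 6.38 in p42 UT, 5.70 in p30 LPS and 4.12 in p42 LPS. The p42 UT list is thus the deepest and the one with the highest ratio, which applies to every comparison with it. The start-site bins of 11 of 11 hematopoietic progenitor genes, among them Kit, Runx1 and Spi1, had loops in all 4 lists. No loop was listed at the T cell genes Cd3e, Cd3d and Cd3g or the neuronal genes Neurod1 and Syp, whereas the B cell gene Cd79a had 2 to 4 loops per list and the hepatocyte gene Apoa1 had 1 loop, in p42 UT.

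Core histones H2A, H2B, H3 and H4 form the protein spool of the nucleosome, and proliferating cells need a large supply of them while DNA is copied. Mammals meet this demand with many near-identical gene copies that are transcribed during S phase in nuclear structures called histone locus bodies, which gather around the clusters and hold NPAT, the coactivator of these genes. Most of the genes lack introns, and their messengers end in a stem-loop in place of a poly(A) tail.

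By start sites, the members form 4 clusters, where a gap of 500 kb or more opens a new one. The cluster on chromosome 3 holds 10 genes in 5 bins over 49.9 kb, and that on chromosome 11 holds 3 genes in 2 bins over 5.77 kb. Chromosome 13 has a cluster called 13A here (22 genes, 13 bins, 327 kb) and another called 13B (26 genes, 15 bins, 403 kb). Cluster 13A is split by an inner gap of 202 kb into 17 and 5 genes. Between 13A and 13B lie 1488 kb with 39 other protein-coding genes, of which 35 are Vmn1r genes, a family of vomeronasal pheromone receptors. In the canonical transcript, 56 of 61 members have 1 exon. The members are packed so tightly that 44 share a bin with another member, at most 5 in 1 bin, and 12 pairs of an H2A and an H2B gene start less than 500 bases apart and are read away from each other. Loops could therefore be assigned to bins but not to single genes of a bin.

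The upstream sequences of 5 members are given because the results below turn on their bins, in build GRCm39 and 5′ to 3′ up to the base before the start site. Capitals mark the octamer ATTTGCAT, the TATA box TATAAA and the CCAAT box CCAAT, each searched on both strands. H2bc12 and the bin of H4c9 and H2bc11 held most of the loops between the chromosome 13 clusters. H2bc12 is shown from chr13:22219890-22220039, plus strand, H2bc11 from chr13:22227234-22227383, plus strand, and H4c9 from chr13:22225533-22225682, minus strand.
H2bc12: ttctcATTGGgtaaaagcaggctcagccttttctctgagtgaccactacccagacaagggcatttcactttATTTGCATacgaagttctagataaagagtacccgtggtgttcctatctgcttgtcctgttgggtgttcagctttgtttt
H2bc11: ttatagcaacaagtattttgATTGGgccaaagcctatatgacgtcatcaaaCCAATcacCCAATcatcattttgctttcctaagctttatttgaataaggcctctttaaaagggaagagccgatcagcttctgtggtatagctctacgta
H4c9: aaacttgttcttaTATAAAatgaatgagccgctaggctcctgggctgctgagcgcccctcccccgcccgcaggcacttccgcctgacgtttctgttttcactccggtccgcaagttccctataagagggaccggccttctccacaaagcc
H4c17 (chr13:21995766-21995915, plus strand) and H4c18 (chr13:22016367-22016516, minus strand) had no loop, and the 250 bases upstream of both genes are identical at 250 of 250 positions.
H4c17: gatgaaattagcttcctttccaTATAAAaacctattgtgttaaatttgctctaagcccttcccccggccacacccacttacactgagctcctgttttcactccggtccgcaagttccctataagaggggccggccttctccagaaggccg
H4c18: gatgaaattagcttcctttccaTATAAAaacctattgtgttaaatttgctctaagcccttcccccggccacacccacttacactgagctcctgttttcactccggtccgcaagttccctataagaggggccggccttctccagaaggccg

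The same 3 motifs were counted in the 250 bases upstream of every protein-coding gene. None of these motifs holds another. The octamer, known as the binding site of POU2F1 at H2B genes, was found at 8 of 19 H2B and 7 of 18 H2A genes but at 0 of 12 H3 and 0 of 12 H4 genes, against 1.49% of all 21757 genes. Since H2A and H2B genes often share 1 upstream region, 1 octamer can be counted for both. The CCAAT box was found at 18 of 18 H2A, 18 of 19 H2B, 9 of 12 H3 and 4 of 12 H4 genes, against 36.5% of all genes, and the TATA box at 29 of 61 members against 11.9%. The absence of a match says only that these letters are not in the window.

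In the 4 lists together, 31 of the 35 bins, with 54 of the 61 members, had at least 1 loop, and 17 bins had one in all 4 lists. The number of bins with a loop was 20 in p30 UT, 31 in p42 UT, 25 in p30 LPS and 26 in p42 LPS, of 35. Among all start-site bins, 35.4% had a loop in p30 UT, 42.7% in p42 UT, 36.9% in p30 LPS and 33.4% in p42 LPS. All listed member bins carried the caller's flag for an H3K27ac peak. The 4 bins without a loop hold H2bc27 in the chromosome 11 cluster, and H2bc23 and H2ac23, H4c17, and H4c18, H2ac24 and H2bc24 in cluster 13A. The latter 3 bins consist almost entirely of sequence that occurs more than once in the genome: 100%, 93.8% and 95.7% of the 50-base windows starting in them were found at another place, against a median of 7.90% in the 31 bins with a loop (range 0.320 to 54.9). In other start-site bins with a loop on these 3 chromosomes the median was 1.76%. The bin of H2bc27 had 3.06%. For reads that cannot be placed in 1 position, a missing loop cannot be told apart from an unplaced one.

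Loops at the histone bins were most numerous in p42 UT. There were 44 member loops in p30 UT, 179 in p42 UT, 84 in p30 LPS and 87 in p42 LPS, 222 distinct loops in all. They made up 0.0547% of the p30 UT list (95% Wilson interval 0.0407 to 0.0734), 0.113% of p42 UT (0.0977 to 0.131), 0.0888% of p30 LPS (0.0717 to 0.110) and 0.111% of p42 LPS (0.0898 to 0.137); like every interval here, these cover the counting error alone. Without LPS, p42 had 4.07 times the member loops of p30 (2.93 to 5.65), against 1.97 times for all loops and 1.92 times for loops at all start-site bins. All 20 bins with a loop in both lists had more in p42 UT than in p30 UT, as did 80.6% of all such start-site bins, with 6.07% having fewer. After LPS the p42 list had 1.04 times the member loops of p30 (0.768 to 1.40), against 0.831 times for all loops. This interval spans both equality and the value for all loops, and it takes touching bin pairs as separate counts. Of 24 bins in both lists 11 had more and 8 fewer, where 21.4% and 54.7% of all start-site bins did.

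LPS went with different directions in the 2 cell lines. In p30 the member loops rose 1.91-fold in number from UT to LPS (1.33 to 2.74), against 1.18-fold for all loops. Of 18 bins in both lists 14 had more and 2 fewer, against 50.9% and 23.8% of all start-site bins. In p42 they were 0.486 times as many after LPS (0.376 to 0.627), close to the 0.497 for all loops. Of 26 bins in both lists 25 had fewer and 0 more, against 85.4% and 3.3%. In lists cut to the same 78591 loops of smallest q-value, the member loops were 43 in p30 UT, 102 in p42 UT, 62 in p30 LPS and 87 in p42 LPS. The p30 UT list thus still had the fewest and p42 UT the most, and p42 then had 2.37 times the member loops of p30 in UT and 1.40 times in LPS.

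**Figure D1:**
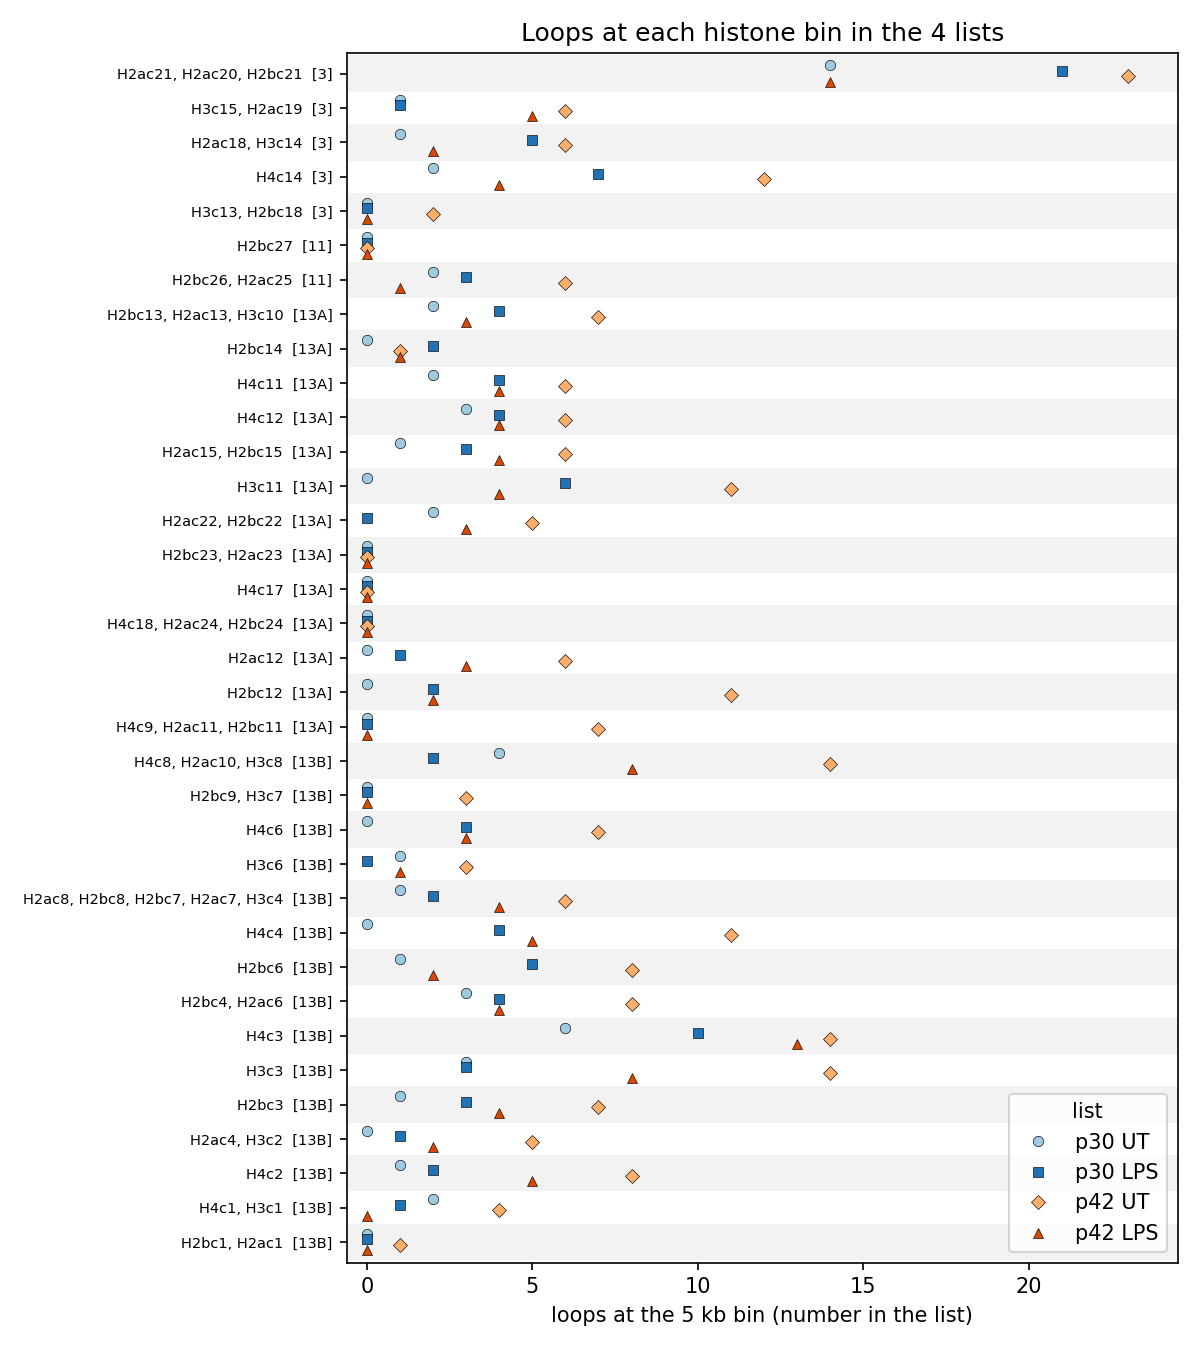
Number of loops (x axis) at each of the 35 member bins (rows, with the genes of the bin and their cluster in brackets) in the 4 lists (symbols). The diamonds of p42 UT lie furthest right in all but 1 of the 31 bins with a loop, the exception being H2bc14 with 2 loops in p30 LPS, and 4 bins stay at 0.

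Most loops were found at the bin of H2ac21, H2ac20 and H2bc21 at the edge of the chromosome 3 cluster (chr3:96125001-96130000), which codes for H2A and H2B proteins. This bin had 14 loops in p30 UT, 23 in p42 UT, 21 in p30 LPS and 14 in p42 LPS, so that both p42 UT and p30 LPS were high. The bin of the H4 gene H4c3 in 13B (chr13:23880001-23885000) followed with 6, 14, 10 and 13 loops in the same order of lists. The bin of H4c8, H2ac10 and H3c8, at the edge of 13B that faces 13A (chr13:23715001-23720000), had 4, 14, 2 and 8 loops. That of the H3 gene H3c3 (chr13:23925001-23930000) had 3, 14, 3 and 8. In both of these bins the p42 lists were above the p30 lists under both treatments.

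The H4 gene H4c14 on chromosome 3 (chr3:96170001-96175000) had 2 loops in p30 UT, 12 in p42 UT, 7 in p30 LPS and 4 in p42 LPS. H3c11, an H3 gene of 13A (chr13:21965001-21970000), had no loop in p30 UT and 11 in p42 UT, and after LPS it had 6 in p30 and 4 in p42. A median member bin had 1, 6, 3 and 3 loops in p30 UT, p42 UT, p30 LPS and p42 LPS. The medians over the 9411 start-site bins with a loop in any list were 2, 4, 2 and 2. Start-site bins without a member whose coverage lay between the quartiles of the member bins had medians of 2, 6, 3 and 2. The member medians were thus below both in p30 UT and above both in p42 LPS, and in p42 UT and p30 LPS they equalled that of bins of like coverage. The member medians are over the 31 bins with a loop. By type and over all bins, those without a loop included, the median bin with an H4 gene had 1.5, 7, 2.5 and 4 loops and the median bin with an H2B gene 0.5, 6, 2 and 1.5, with 1, 6, 1.5 and 3 for H2A and 1, 6, 1.5 and 2.5 for H3. Bins with genes of several types were counted under each.

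Of the 222 distinct member loops, 55 joined 2 member bins of the same cluster, 4 joined member bins of 13A and 13B, and 163 led to a bin without a member. In all 4 lists together stood 21 member loops, 9.46% of the distinct ones, against 14.5% of all loops. In p42 UT alone stood 81 (36.5%, against 28.7% of all loops). The loops inside a cluster numbered 9 in p30 UT, 51 in p42 UT, 19 in p30 LPS and 26 in p42 LPS, or 20.5%, 28.5%, 22.6% and 29.9% of the member loops. Of the loops to bins without a member, 16, 73, 38 and 42 ended inside the span of the same cluster.

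An example inside 13B is the loop between H4c3 and H3c3, 45 kb apart. It had 19 contacts in p30 UT (3.56 expected), 56 in p42 UT (5.13 expected), 33 in p30 LPS (3.53 expected) and 29 in p42 LPS (3.98 expected). On chromosome 3, the bin of H2ac21, H2ac20 and H2bc21 and that of H3c15 and H2ac19, 20 kb apart, had 31 contacts in p30 UT and 63 in p42 UT; after LPS the pair had 47 in p42 and was not listed in p30. In both examples p42 UT had the most contacts among the lists that held the loop.

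Up to 100 kb, pairs of member bins were listed more often than pairs of all start-site bins in both p42 lists. The pairs considered are all pairs of start-site bins with a loop in any list. At 10 to 50 kb, 6 of 43 member pairs were loops in p30 UT, 29 in p42 UT (67.4%), 11 in p30 LPS (25.6%) and 16 in p42 LPS (37.2%). Among all 7117 pairs of start-site bins at this distance the shares were 26.7%, 43.8%, 33.1% and 25.1%. All 31 member bins in this set have a loop in p42 UT and 4 have one nowhere else, so the choice of bins itself favours p42 UT. Among bins with a loop in the list at hand, 6 of 21 member pairs (28.6%, against 36.6% of all start-site pairs) were loops in p30 UT, 29 of 43 (67.4%, against 47.6%) in p42 UT, 11 of 29 (37.9%, against 41.6%) in p30 LPS and 16 of 32 (50%, against 37.0%) in p42 LPS. At 10 to 50 kb the member pairs were in this way too below the background in the p30 lists, in p30 LPS only slightly, and above it in the p42 lists. At 50 to 100 kb the shares of 24 member pairs were 12.5%, 50.0%, 33.3% and 41.7% against a background of 15.2%, 26.4%, 17.7% and 13.6%, so that only p30 UT was below it. Among bins with a loop in the list at hand, these shares were 21.4%, 50%, 44.4% and 50%. The background was then 21.1%, 29.3%, 23.2% and 20.8%, so that no list was below it and p30 UT stood close to it. At 100 to 200 kb, 6 of 38 member pairs (15.8%) were loops in p42 UT and 0 in the other 3 lists, against a background of 10.7% in p42 UT, 5.65% in p30 UT, 6.31% in p30 LPS and 4.34% in p42 LPS. At 200 to 500 kb, 4 of 44 (9.09%) were loops in p42 UT, against 1.46%, and 0 in the others, where the background was 0.61% in p30 UT, 0.785% in p30 LPS and 0.553% in p42 LPS.

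**Figure D2:**
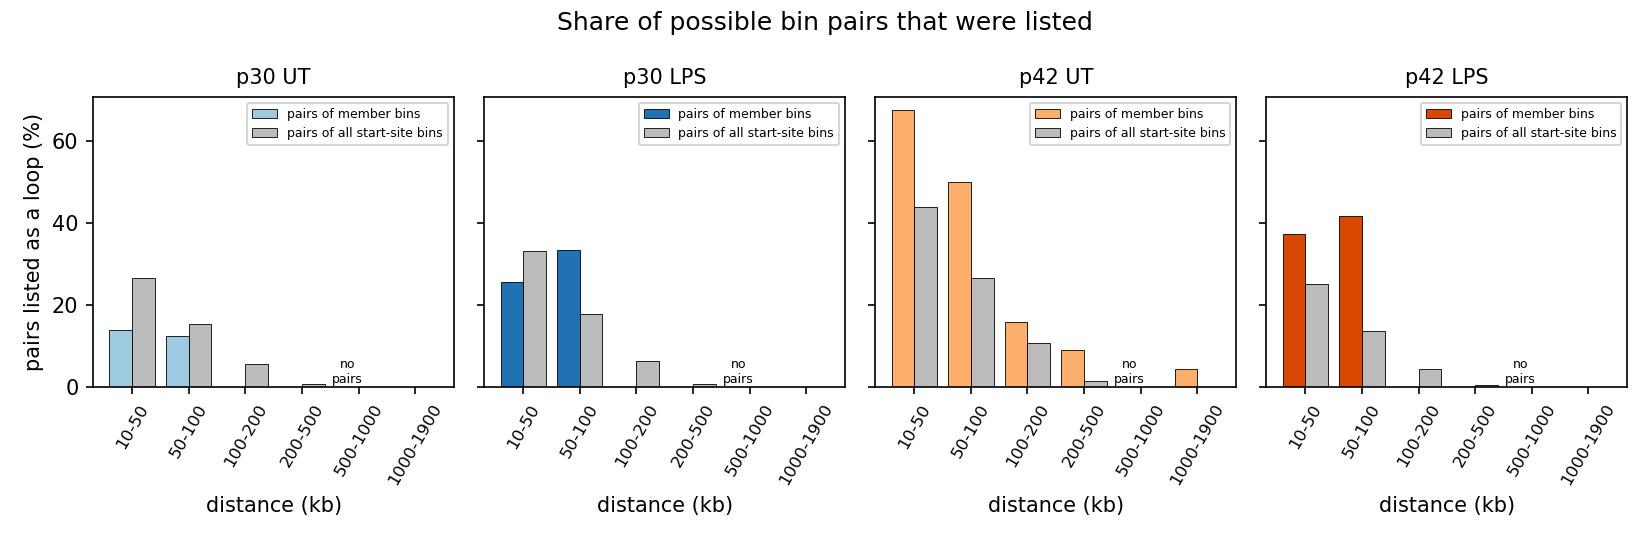
Share of possible bin pairs (y axis, percent) that were listed as a loop, by distance in kb (x axis), for pairs of member bins (coloured bars) and for pairs of all start-site bins (grey bars), with 1 panel per list. At 10 to 50 kb the coloured bar stands at 67.4% in p42 UT and 25.6% in p30 LPS, and at 1000 to 1900 kb only p42 UT has a bar.

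Loops between clusters 13A and 13B were listed in both p42 lists, nearly all in the longer p42 UT list. In p42 UT 10 loops ran between the spans of the 2 clusters, and they held 78 contacts against 10.4 expected. In p42 LPS 1 loop did so, with 8 contacts against 1.03 expected, and neither p30 list held one. Loops of 1490 kb or more, the shortest that can join these spans, numbered 4 in p30 UT, 20 in p42 UT, 5 in p30 LPS and 10 in p42 LPS over the whole genome. With 1 bin more on both sides of each span, a margin chosen after the loops were seen, p42 UT had 14 loops with 121 contacts against 14.6 expected, and the other lists had no more than before. The p42 UT list holds 158233 loops and the others 78591 to 94609. In lists cut to the same 78591 loops of smallest q-value, 1 loop between the spans was left in p42 UT (3 with the margin), beside 1 in p42 LPS and 0 in both p30 lists, so that most of the difference between the p42 lists was not seen at equal size.

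Member bins stood at both ends of 4 of these loops, which were listed in p42 UT but in no other list. Of these 4, 1 was left in lists of equal size, 2 at q-values up to 0.001 and 0 at up to 1e-05. The bin of H4c9, H2ac11 and H2bc11 (chr13:22225001-22230000) was joined to that of H4c8, H2ac10 and H3c8 (chr13:23715001-23720000), 1490 kb away, by 10 contacts against 1.04 expected (q = 1.9e-05, as the authors' caller gave it). H2bc12 (chr13:22220001-22225000) was joined to the bin of H2bc9 and H3c7 (chr13:23725001-23730000) by 8 contacts and to the bin of H4c6 and of the linker histone gene H1f3 (chr13:23735001-23740000) by 7. The last of the 4 ran from the H4c9 bin to the H4c6 bin, with 7 contacts. All of them lay between the 5 genes of 13A that are nearest to 13B and the genes at the near edge of 13B.

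The other 10 loops of p42 UT, with the margin, had a bin without a member at 1 end or both. The loop with most contacts, 14 against 1.05 expected, led from the H4c9 bin to the bin just outside 13B (chr13:23710001-23715000), and the same bin had 12 contacts with H2bc12. H2bc12 had 3 further loops, with 7 to 9 contacts, to bins of 13B without a member, and the H4c8 bin had 1, with 8 contacts, to the bin next to the H4c9 bin. H3c11 and the linker histone gene H1f5 had 1 each, with 7 contacts, and the remaining 2 joined bins without a protein-coding start site, with 7 and 9. The 1 loop of p42 LPS ran from H2bc12 to chr13:23740001-23745000, 1520 kb away, a pair that had 9 contacts in p42 UT.

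At 1000 to 1900 kb there were 63166 pairs of start-site bins, and 4 of them (0.00633%) were listed in p42 UT, 0 in p30 UT, 0 in p30 LPS and 0 in p42 LPS. Those 4 are the histone pairs, 4 of 92 possible member pairs at this distance (4.35%). The H4c9 and H2bc9 bins, which carry 3 of them, have loops in p42 UT alone, so these 3 pairs entered the set through that list and their absence from the others is no separate observation. No member pair is 500 to 1000 kb apart, where the background was 0.011% in p30 UT, 0.0572% in p42 UT, 0.0264% in p30 LPS and 0.0176% in p42 LPS. The counts are small: at 1 Mb or more the lists held no loop under 7 contacts, so that a pair with fewer contacts in another list cannot be seen, and the number of contacts of a pair that is not listed is not known. In the lists other than p42 UT, coverage is known for the H2bc12 bin in the LPS lists, with a coverage of 1.89 in p30 and 2.07 in p42 times the mean of the peak bins, against 2.29 in p42 UT, but in none for the H4c9 and H2bc9 bins.

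Since the clusters hold similar genes, shared sequence was measured in these bins. For 12 of the 15 loops between the spans with the margin, those of p42 UT and p42 LPS together, no 50-base window of the first bin occurs in the second. The 3 others were the loop of the H4c9 bin to the H4c8 bin, with 313 of 5000 windows shared, that of H2bc12 to the H2bc9 bin, with 159, and that of the H4c9 bin to the H4c6 bin, with 98. These are 3 of the 4 loops with member bins at both ends, so that shared sequence was found in most loops between histone bins and in none of the 11 others. The 2 loops with most contacts, to the bin just outside 13B, were among those that shared no window.

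**Figure D3:**
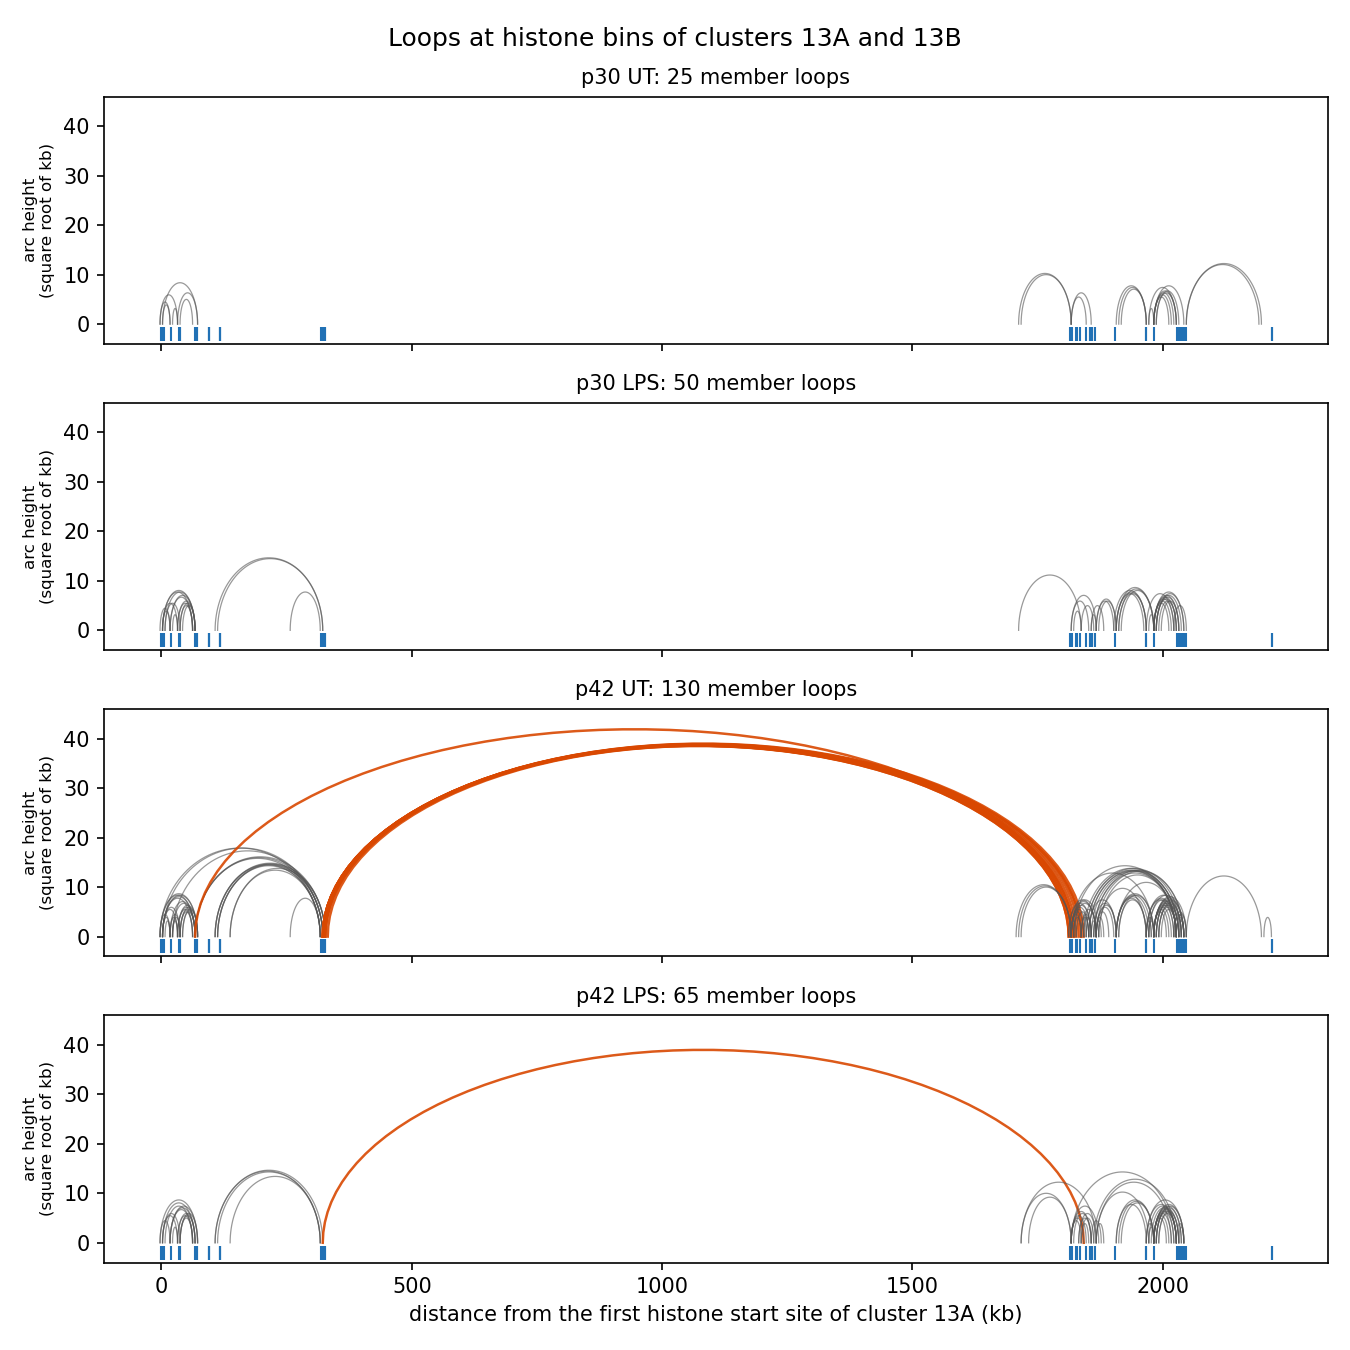
Member loops of chromosome 13 as arcs between their bins, with 1 panel per list, the x axis in kb from the first histone start site of 13A, arc height as the square root of the distance in kb, and blue ticks at the histone start sites. Arcs of 1 Mb or more are orange; p42 UT has 11 of them, 8 between the cluster spans and 3 with an end 1 bin outside, p42 LPS has 1 and the p30 lists have none.

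Median distances differed less between lists than upper quartiles. The median distance of a member loop was 42.5 kb in p30 and 50 kb in p42 without LPS and 42.5 and 45 kb after LPS. For all loops it was 45, 40, 35 and 40 kb in the same order. The upper quartile was 62.5, 158, 61.2 and 67.5 kb, against 90, 85, 80 and 80 kb for all loops. Thus p42 UT was above all loops and the other 3 lists were below them. In lists of equal size the member medians were 40, 40, 40 and 45 kb, and the upper quartile was not computed there. Loops of 500 kb or more were 11 of 179 member loops in p42 UT (6.15%, 95% Wilson interval 3.47 to 10.7), 1 of 87 in p42 LPS (1.15%, 0.203 to 6.23) and 0 of 44 and 0 of 84 in p30 UT and p30 LPS, where the intervals reach 8.03% and 4.37%. Among all loops the share was 0.277% in p30 UT, 0.304% in p42 UT, 0.237% in p30 LPS and 0.223% in p42 LPS. All 11 in p42 UT were longer than 1 Mb, and p42 UT held 42 such loops in all.

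Contacts were compared at member loops that 2 lists share, since a list gives no contacts for other pairs. In untreated cells 39 member loops stood in both the p30 and the p42 list, and 64.8% of their contacts came from p42 (95% Wilson interval 63.0 to 66.6). The share that p42 had of the modelled contacts was 51.4%, of the expected contacts of the same loops 58.1%, and of the contacts at all 59069 shared loops 56.3%. The p42 share at the histone loops was thus above all 3. The median log2 ratio was 0.78 over the member loops and 0.28 over all shared loops. Relative to the median of all loops, 19 of the 39 were more than 1.5-fold higher in p42 and 1 more than 1.5-fold lower, against 10.2% and 7.44% of all shared loops.

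After LPS the share of p42 was 49.8% (47.8 to 51.9) over 40 shared member loops, against 52.2% of modelled and 52.5% of expected contacts and 49.1% at all shared loops. Of the 40, 1 was more than 1.5-fold higher and 3 lower, where the background was 6.6% and 8.24%. In p30, LPS had 54.0% (51.6 to 56.4) of the contacts of 26 member loops in both lists, against 49.4% expected and 49.2% at all shared loops. There, 5 of 26 were more than 1.5-fold higher and 1 lower, against 7.09% and 6.04%. In p42 the share of LPS was 40.4% (39 to 41.8) over 69 member loops, against 43.2% expected and 41.9% at all shared loops, and 3 of 69 were more than 1.5-fold higher and 8 lower, against 6.76% and 7.71%. The histone loops thus stood out from all loops most in untreated p42 against untreated p30.

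**Figure D4:**
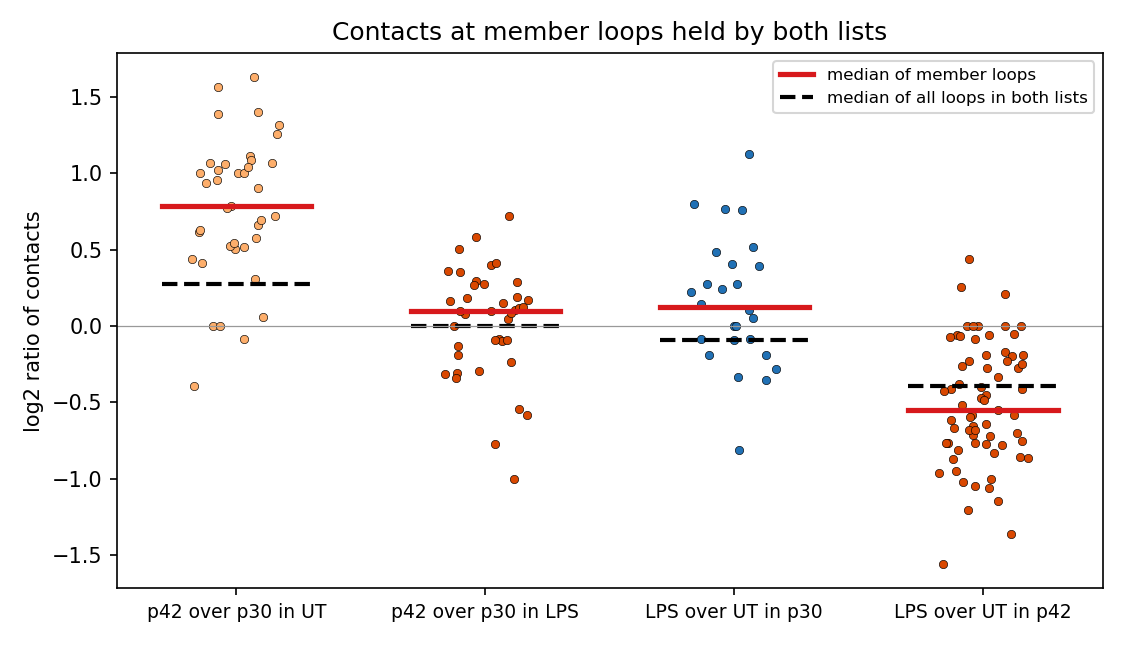
Log2 ratio of contacts (y axis) at each member loop that both lists of a comparison hold (points, spread sideways at random), with the median of the member loops as a red line and that of all shared loops as a dashed black line. The median of the member loops lies at 0.78 against 0.28 for p42 over p30 in UT and at -0.55 against -0.39 for LPS over UT in p42.

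Coverage was given by the lists for bins with a loop only. It was divided by the mean coverage of the peak bins of its list, so that 1 stands for an average peak bin; this is called relative coverage. In untreated cells it was higher in p42 than in p30 at 19 of the 20 member bins in both lists (58.5% of all start-site bins), with a median log2 ratio of 0.57 (range -0.25 to 1.12). The median over all 6854 start-site bins in both lists was 0.06. Measured from that median, 7 of the 20 member bins were more than 1.5-fold higher and 0 lower, against 2.8% and 2.12% of all start-site bins. Start-site bins without a member and of like coverage (between the quartiles of the member bins, 1.13 and 2.26) had a median of 0.09.

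The difference lay inside the clusters. Bins within the cluster spans that hold no member had a median log2 ratio of 0.30 over 48 bins, and start-site bins within 1 Mb of the spans had 0.05 over 65 bins. By cluster the median was 0.72 over 10 bins of 13B, 0.58 over 4 bins on chromosome 3, 0.47 over 5 bins of 13A and 0.06 for the 1 bin on chromosome 11. In a bulk library, more cells that carry the mark or contact and more of it in each cell cannot be told apart.

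After LPS the direction between the isoforms depended on the scale. The median log2 ratio of p42 over p30 was 0.02 over 24 member bins (range -0.59 to 0.39), against -0.11 for all start-site bins. It was -0.31 with coverage relative to modelled contacts and 0.13 relative to the median of start-site bins. On the first scale none was more than 1.5-fold from that median, where 2.93% of all were higher and 1.37% lower. In p30, relative coverage was higher after LPS at 18 of 18 member bins (57.2% of all start-site bins), with a median of 0.38 against 0.04 for all, and 2 bins were more than 1.5-fold above that median, against 1.39%, and 0 below, against 0.484%. In p42 it was lower after LPS at all but 1 of 26 (75% of all start-site bins), with a median of -0.21 against -0.13 for all. This median was -0.54 relative to modelled contacts and -0.080 relative to the median of start-site bins. Of these bins, 0 were past 1.5-fold, against 1.49% higher and 0.364% lower. Over the 17 bins in all 4 lists, the median relative coverage was 1.47 in p30 UT, 1.77 in p42 UT, 1.63 in p30 LPS and 1.45 in p42 LPS. The ratio of peak to other coverage given above is also highest in p42 UT, and its part in these values was not tested.

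The bin higher in p42 under both treatments with the largest smaller ratio holds H2ac8, H2bc8, H2bc7, H2ac7 and H3c4 in 13B (chr13:23755001-23760000), the most crowded of all. Its relative coverage was 0.644 in p30 UT, 1.40 in p42 UT, 1.05 in p30 LPS and 1.38 in p42 LPS, so that p30 UT was low and both p42 values were alike. The log2 ratio of p42 over p30 was 1.12 in UT and 0.39 in LPS, and 24.1% of the 50-base windows of this bin are repeated in the genome. Among bins higher in p42, ordered by the smaller of their ratios, the next was that of H2ac18 and H3c14 on chromosome 3 (chr3:96150001-96155000), with 3.07, 4.50, 4.09 and 4.31 in the same order of lists and ratios of 0.55 and 0.07, and 37.6% of its windows are repeated.

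H3c3 had a relative coverage of 2.13 in p30 UT, 3.84 in p42 UT, 3.20 in p30 LPS and 3.36 in p42 LPS, with ratios of 0.85 and 0.07. The H4 gene H4c11 in 13A (chr13:21915001-21920000) was the only member bin lower in p42 under both treatments, with 1.01, 0.846, 1.07 and 0.709 and ratios of -0.25 and -0.59. Of the 17 member bins in all 4 lists, 8 were higher in p42 under both treatments, 1 lower under both, and 8 higher in UT and lower in LPS, against 23.7%, 30.9% and 37.7% of all start-site bins in all 4 lists. The direction in LPS depended on the scale: relative to modelled contacts 1 of the 17, the bin of H2ac8, was higher under both treatments and 15 were lower in LPS alone, and relative to the median of start-site bins 13 and 3 were. H4c11 was lower under both treatments on all 3 scales.

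The highest relative coverage of any member bin was that of H4c14, with 4.91 in p42 UT, against 3.07 in p30 UT, 3.73 in p30 LPS and 3.89 in p42 LPS. The most looped bin, that of H2ac21, H2ac20 and H2bc21, had 2.36, 3.53, 3.39 and 3.45 in p30 UT, p42 UT, p30 LPS and p42 LPS, so that p30 UT alone was low. The H4c8 bin at the edge of 13B had 1.47, 2.59, 1.92 and 1.95, with p42 UT alone high. H4c3 had 0.986, 1.39, 1.18 and 1.14, near the average peak bin although it came second in loops. H3c11 had no value in p30 UT and 2.18 in p42 UT, and after LPS 1.80 in p30 and 1.77 in p42.

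**Figure D5:**
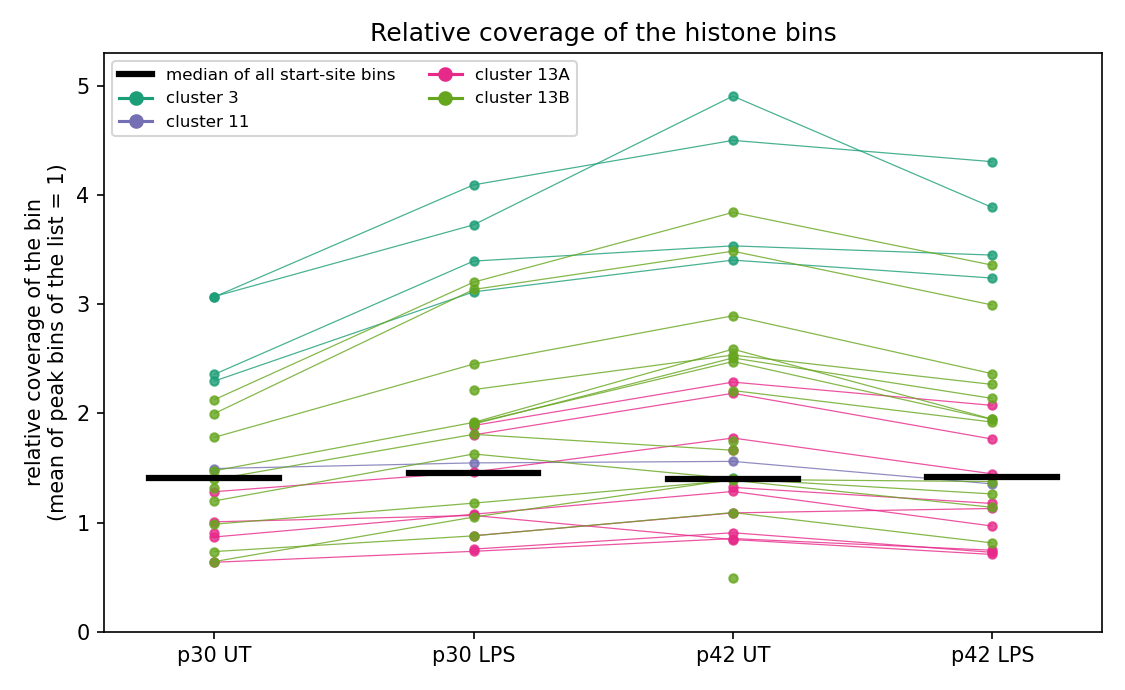
Relative coverage (y axis, 1 is the mean of the peak bins of the list) of each member bin in the 4 lists (x axis), with points coloured by cluster and joined where neighbouring lists both hold the bin, and with the median of all start-site bins as a black bar. The highest point is a chromosome 3 bin at 4.91 in p42 UT, most lines rise from p30 UT to p30 LPS and fall from p42 UT to p42 LPS, and the black bars stay between 1.40 and 1.45.

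Genes beside the members showed the partners of these loops. Of the protein-coding genes outside the member bins, H1f5 and H1f2 shared most loops with member bins, 12 and 10 summed over the 4 lists. Both code for linker histones, which bind the DNA between nucleosomes and lie in 13A and 13B. H1f2 and H4c3, 40 kb apart, had 35 contacts in p30 UT, 108 in p42 UT, 50 in p30 LPS and 47 in p42 LPS, against 4.09 to 5.77 expected. H1f5 and the bin of H2ac15 and H2bc15, 25 kb apart, had 33, 63, 33 and 37. In both loops p42 UT held the most contacts.

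Beside the chromosome 3 cluster, Bola1, which codes for a mitochondrial protein, shared 9 loops with member bins, and the splicing factor gene Sf3b4 shared 6. Bola1 and the bin of H2ac21, H2ac20 and H2bc21, 25 kb apart, had 37 contacts in p30 UT, 61 in p42 UT, 49 in p30 LPS and 52 in p42 LPS. The linker histone gene H1f6 in 13B, not in the list of linker genes used below, shared 3 loops, 2 in p42 UT and 1 in p42 LPS. Hfe, a regulator of iron uptake that lies in 13B, shared 6 loops, with 0 in p30 UT, 3 in p42 UT, 1 in p30 LPS and 2 in p42 LPS. The genes Mtmr11 and Sv2a, which tie for the next place, shared 1 loop in each list.

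The linker histone genes H1f1 to H1f5 of the chromosome 13 clusters had 10 loops in p30 UT, 39 in p42 UT, 22 in p30 LPS and 18 in p42 LPS at their bins, of which those of H1f1, H1f3 and H1f4 are also member bins. H1f2 had a relative coverage of 2.53, 3.76, 3.68 and 3.02 in the same order, and H1f5 had 1.56, 2.16, 2.23 and 1.92. The median log2 ratio of p42 over p30 in UT was 0.52 over the 4 genes with a value, all but H1f3, of which H1f1 and H1f4 lie in member bins. In LPS it was -0.16 over another 4, all but H1f1. The median of LPS over UT was 0.45 in p30 without H1f3 and -0.27 in p42 without H1f1.

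Histone genes outside the clusters had smaller coverage ratios in UT. The loop counts of the gene lists below are in the order p30 UT, p42 UT, p30 LPS and p42 LPS. The replication-independent list (H3f3a, H3f3b, H2az1, H2az2, H2ax, H1f0, H1f10, Macroh2a1 and Macroh2a2), whose products are made throughout the cell cycle or mark special chromatin, had 33, 64, 34 and 32 loops and a median log2 coverage ratio of 0.24 over 6 genes for p42 over p30 in UT. A list of 14 genes for histone gene transcription and messenger processing, among them Npat and Slbp, which binds the stem-loop of histone messengers, had 32, 63, 38 and 30 loops and a median of 0.15 over 10 genes. Npat itself had 1, 3, 1 and 3 loops and a ratio of 0.12. For 6 histone chaperone genes, whose products carry histones to DNA, the loops were 15, 31, 20 and 9 and the median was 0.07 over 4 genes. The member median of 0.57 was above that of each of these 3 lists, and the difference between lists was not tested.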

How the data were processed

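H3K27ac HiChIP was measured in 8 libraries, 2 replicates in each of 4 groups. According to the methods, the authors mapped reads to mm39 with BWA-MEM (version 0.7.17 in the submitters' processing notes), recorded ligation products and removed PCR duplicates with pairtools, and called loops with FitHiChIP. The deposited lists are in 5 kb bins and hold q-values below 0.01. How replicates were combined was not stated. The deposited lists give a contact count per bin pair, coverage (reads per bin, a signal), a coverage bias (a ratio to the mean of its class of bins), an expected count, an expected contact probability (a fraction of the modelled contacts) and a q-value, all by the authors' caller. The caller corrects for coverage and lists significant pairs alone, so contacts of other pairs are unknown.

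Groups came from the labels. Start sites were those of canonical transcripts of GENCODE M39, whose build GRCm39 is the assembly of mm39. Modelled contacts are the expected count divided by the probability, and mean coverage is coverage divided by bias. Shares have 95% Wilson intervals, and ratios of loops the interval of the share of both lists. No p-value was computed. Repeated sequence was counted as exact 50-base windows on either strand of GRCm39. The counting steps were tested on simulated data. Alternatives were stricter q-values (0.001, 1e-05), lists of equal size, wider bins, all transcripts, 5 contacts, 20 kb, merged bin pairs, loops or bins in all 4 lists, other scales of coverage and, added after the data were seen, bins with at most 20% repeated windows. Bins named are the 6 with most loops and the 3 per direction with the largest coverage difference of 1 sign in UT and LPS (1 was lower), with the loops between clusters, H1f1 to H1f5 and the 6 genes sharing most loops with members; loops within clusters and the loops between clusters without 2 member bins were named after their values were seen, and the margin of 1 bin around the spans was chosen then too. The members and lists were chosen with earlier results of these data known. Python 3.11.15, pandas 2.3.3 and SciPy 1.17.1 were used. Some items are not reported here.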

Additional observations from a re-analysis of the deposited data

Results flagged for a closer look

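LPS went with opposite directions in p30 and p42 at the histone bins, in 3 measures. The log2 change in the number of member loops from UT to LPS was 0.93 in p30 and -1.04 in p42, and 0.53 and -0.23 in lists of equal size. The median log2 change in relative coverage was 0.38 in p30, where 18 of 18 bins and 57.2% of all start-site bins were higher after LPS, and -0.21 in p42, where 1 of 26 and 25% were. For all start-site bins it was 0.04 and -0.13. The median log2 change in contacts at member loops in both lists was 0.13 in p30 and -0.55 in p42, against -0.093 and -0.39 for all loops in both lists. With 1 list per group the difference between the isoforms was not tested. All loops changed in number in the same directions, by 1.18 times in p30 and 0.497 times in p42.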

How the results depend on the processing

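No paired analysis was possible because each group has 1 deposited list for both replicates, and for the same reason no replicate could be left out. Of 184 values under 13 alternative settings, 165 stayed within their interval or within 1.5 times the count as reported. The other 19 did not, and 0 changed sign with a called direction. The 165 include values that could not move. Start sites of all transcripts again gave 35 member bins, and the minimum number of contacts removed no member loop. Every value under these settings equalled the reported one, so they say nothing about how stable the results are. The loops with member bins of 13A and 13B at both ends in p42 UT, 4 of the 10 between the spans, were 2 at q-values up to 0.001, 0 at up to 1e-05, 1 in lists of equal size and 14 with 1 bin more on each side of every member bin, where p42 LPS had 1 in place of 0. With lists of equal size the ratio of member loops was 2.37 for p42 over p30 in UT, 1.40 in LPS and 0.853 for LPS over UT in p42; with adjacent bin pairs merged it was 2.37 in UT and 0.656 for LPS over UT in p42. The share of contacts at q-values up to 1e-05 was 66.7% for p42 in UT and 38.4% for LPS in p42, which was 37.4% over loops in all 4 lists. With coverage relative to modelled contacts the median log2 ratios were 0.76 for p42 over p30 in UT, -0.31 in LPS, 0.58 for LPS over UT in p30 and -0.54 in p42, and relative to the median of start-site bins they were 0.13 for p42 over p30 in LPS and -0.080 for LPS over UT in p42. With bins of at most 20% repeated windows, 26 of 35, the loops with such bins at both ends in p42 UT were 3 and the ratio of member loops in UT was 3.88. The causes were not tested. At 1 Mb or more no pair under 7 contacts was listed in any list.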
